A study of Mus musculus with 4 samples.

Results

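The BMP and TGF-beta signaling pathway was examined through 45 of the 21938 protein-coding genes of the mouse, taken from a list of pathway genes given by name. They comprised 16 ligands, 10 receptors, 8 Smads, 4 Id target genes and 7 secreted antagonists or binding proteins. A locus was the gene itself plus the 2 kb before its start (GENCODE M21 on GRCm38), and a region belonged to it when the 2 overlapped by at least 1 bp. Each of the 45 loci held at least 1 region, and together they held 613 of the 255864 accessible regions. The regions came from ATAC-seq, in which Tn5 transposase cuts open chromatin, on primary osteoblasts of 3-day-old C57BL/6 mice. WT cells were set against cells of TCKO mice, where the Prx1-Cre recombinase met floxed alleles of all the Tet genes (Tet1fl/fl Tet2fl/fl Tet3fl/fl), to ask how loss of these DNA demethylating enzymes altered chromatin accessibility. Prx1-Cre acts in mesenchyme of the limb and of parts of the skull, so that cells of another origin in a culture can keep the Tet genes. The labels name 2 samples per genotype, whereas the deposited count table holds 1 merged column for each, so every value below compares 2 merged libraries, with no replicate check and no test.

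Ligands of this family assemble type I and type II receptor kinases at the cell surface, and the type I receptor then phosphorylates a receptor-activated Smad. Smad1, Smad5 and Smad9 carry BMP signals, Smad2 and Smad3 carry TGF-beta and activin signals, and both sets enter the nucleus with the shared partner Smad4. Smad6 and Smad7 inhibit the pathway, Id genes are early targets of BMP signaling, and secreted proteins such as noggin and gremlin bind ligands before they reach a receptor. In bone, BMPs drive mesenchymal cells towards the osteoblast fate, and latent TGF-beta is stored in the matrix by LTBP proteins.

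Sequences are shown for the regions on which the results turn. First come 3 stretches before a gene start from the Id and inhibitory Smad loci, in which capitals mark CG dinucleotides, the substrate of DNA methylation, and the whole of GGCGCC, a GC-rich letter string known from Smad-bound promoters. These 3 were chosen after their values were seen. All are the plus strand of GRCm38, 300 bases around the midpoint of the region, 5′ to 3′. They lie at chr2:152735017-152735316 (*Id1*), chr12:25098577-25098876 (*Id2*) and chr9:64022413-64022712 (*Smad6*).
Id1: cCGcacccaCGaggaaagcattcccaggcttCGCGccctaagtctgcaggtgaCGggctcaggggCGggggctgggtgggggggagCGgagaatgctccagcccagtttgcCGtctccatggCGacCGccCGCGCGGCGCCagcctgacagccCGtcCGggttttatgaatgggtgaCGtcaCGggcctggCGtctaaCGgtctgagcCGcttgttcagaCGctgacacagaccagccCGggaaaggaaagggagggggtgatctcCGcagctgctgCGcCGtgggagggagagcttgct
Id2: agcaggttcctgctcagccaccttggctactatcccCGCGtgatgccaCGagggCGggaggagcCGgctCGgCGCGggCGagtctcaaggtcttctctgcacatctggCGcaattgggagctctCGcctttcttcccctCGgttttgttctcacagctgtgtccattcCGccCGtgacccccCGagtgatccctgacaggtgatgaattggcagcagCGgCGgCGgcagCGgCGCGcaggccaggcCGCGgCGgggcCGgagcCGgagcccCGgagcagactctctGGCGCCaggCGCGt
Smad6: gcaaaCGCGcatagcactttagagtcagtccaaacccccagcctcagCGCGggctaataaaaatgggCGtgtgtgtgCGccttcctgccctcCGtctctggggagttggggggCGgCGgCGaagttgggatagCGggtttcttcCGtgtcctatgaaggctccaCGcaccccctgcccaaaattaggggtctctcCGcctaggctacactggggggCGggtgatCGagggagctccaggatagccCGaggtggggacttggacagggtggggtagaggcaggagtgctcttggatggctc
The *Id1* stretch holds 26 CG dinucleotides, the *Id2* stretch 30 and the *Smad6* stretch 17, and GGCGCC occurs once in the first and once in the second but not in the third. The next 6 stretches are the 3 members' regions with the lowest and the 3 with the highest ratio of TCKO to WT among those with at least 100 counts in 1 genotype. Here capitals mark TGANTCA (the bZIP letters, N standing for any base), TGTGGT (Runt) and GGAATG (TEAD), searched on both strands. All 6 lie in introns, those of lower ratio at chr17:75018202-75018501 (*Ltbp1*), chr9:116146394-116146693 (*Tgfbr2*) and chr5:107268125-107268424 (*Tgfbr3*).
Ltbp1, lower: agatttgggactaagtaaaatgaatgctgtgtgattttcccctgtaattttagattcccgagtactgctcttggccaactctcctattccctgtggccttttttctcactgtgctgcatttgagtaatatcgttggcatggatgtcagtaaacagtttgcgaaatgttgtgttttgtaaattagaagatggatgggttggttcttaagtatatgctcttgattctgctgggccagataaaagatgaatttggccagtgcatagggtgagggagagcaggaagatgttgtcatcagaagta
Tgfbr2, lower: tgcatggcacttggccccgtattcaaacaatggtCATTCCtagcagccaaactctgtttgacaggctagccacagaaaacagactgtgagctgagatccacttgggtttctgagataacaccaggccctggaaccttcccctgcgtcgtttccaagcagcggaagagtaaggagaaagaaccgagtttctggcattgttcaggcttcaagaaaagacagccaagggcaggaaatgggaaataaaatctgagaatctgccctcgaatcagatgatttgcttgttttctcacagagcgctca
Tgfbr3, lower: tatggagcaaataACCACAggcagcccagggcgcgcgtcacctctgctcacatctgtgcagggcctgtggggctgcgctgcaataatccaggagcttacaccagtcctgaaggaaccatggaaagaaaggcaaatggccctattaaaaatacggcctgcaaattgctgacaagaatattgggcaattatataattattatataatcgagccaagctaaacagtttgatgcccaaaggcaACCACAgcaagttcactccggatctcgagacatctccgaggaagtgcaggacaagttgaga
Those of higher ratio lie at chr12:84835689-84835988 (*Ltbp2*), chr17:75287361-75287660 (*Ltbp1*) and chr3:142105928-142106227 (*Bmpr1b*).
Ltbp2, higher: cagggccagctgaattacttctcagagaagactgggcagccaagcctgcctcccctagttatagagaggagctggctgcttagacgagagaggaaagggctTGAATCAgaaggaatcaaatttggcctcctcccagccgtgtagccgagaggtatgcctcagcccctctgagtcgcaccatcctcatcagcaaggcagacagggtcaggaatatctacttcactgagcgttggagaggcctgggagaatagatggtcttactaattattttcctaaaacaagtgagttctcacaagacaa
Ltbp1, higher: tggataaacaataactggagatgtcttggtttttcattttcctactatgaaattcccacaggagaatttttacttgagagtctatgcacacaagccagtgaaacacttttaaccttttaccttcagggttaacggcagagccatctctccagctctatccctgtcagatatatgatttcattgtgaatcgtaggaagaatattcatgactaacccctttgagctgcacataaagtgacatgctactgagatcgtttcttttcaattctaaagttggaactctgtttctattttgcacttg
Bmpr1b, higher: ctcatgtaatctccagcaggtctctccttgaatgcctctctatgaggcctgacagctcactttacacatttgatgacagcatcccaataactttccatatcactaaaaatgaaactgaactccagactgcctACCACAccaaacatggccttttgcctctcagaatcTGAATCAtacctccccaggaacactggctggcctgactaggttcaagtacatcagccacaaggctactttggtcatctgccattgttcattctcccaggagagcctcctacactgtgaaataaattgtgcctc
TGANTCA was present in 2 of the 3 stretches of higher ratio (*Ltbp2* and *Bmpr1b*) and in 0 of the 3 of lower ratio, while Runt letters stood in 1 of each set. A match is a run of letters, not a measured binding site.

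Over all regions the WT column held 56898657 counts and the TCKO column 34608167, so TCKO counts were multiplied by 1.64 before a ratio was taken, and the median region then had a log2 ratio of 0.06. Ratios are log2 of TCKO over WT with 1 count added to each, and the range after a ratio is its 95% counting interval (Wilson). The ranges express counting error alone, and PCR copies of a molecule cannot be told apart without molecular identifiers. The *Tet* loci as a whole had ratios of -0.16 (*Tet1*), -0.22 (*Tet2*) and -0.14 (*Tet3*), but the labels do not say which exons were floxed, so these sums do not check the deletion. Of the marker loci, the osteoblast list had a median ratio of -0.12 (8 of 8 loci with regions, 28950 counts in WT and 16892 in TCKO) and the chondrocyte list -0.18 (5 of 5). By interval, 3 osteoblast loci lay below 0 and 1 above, *Spp1* (0.47), while *Runx2*, with 17646 of the WT counts, stood at 0.0. Of the chondrocyte loci, 4 lay below 0 and 1 above. The macrophage or osteoclast list had a median of 0.02 (6 of 6) and the skeletal muscle list 0.12 (4 of 5, *Myog* holding no region). The former had 1 interval below 0 and 2 above, and ran from -0.36 to 0.61, and the latter had 1 interval above 0 and 0 below. At the endothelial loci, each of 5 had an interval above 0, with a median of 0.46 and 6702 counts in WT against 5232 in TCKO. The part of these marker differences in the results below was not tested.

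Across the 45 loci the pathway held 173611 WT counts and 99992 TCKO counts, with a median log2 ratio per locus of -0.06, against -0.03 over all 18073 protein-coding loci with a region. The ratios ran from -0.43 at *Smad6* to 0.44 at *Grem1*, and no member locus reached a 2-fold difference, where 0.338% of all protein-coding loci were at least 2-fold lower and 1.89% at least 2-fold higher. The interval lay wholly below 0 at 19 member loci, against 32.8% of all protein-coding loci, and wholly above 0 at 10, against 23.6%. At the remaining 16 it held 0. Whether an interval excludes 0 also depends on the count. Per locus the members held more WT counts (173611 over 45 loci) than all protein-coding loci (41972733 over 18073). These shares are therefore not like for like. By role, the median ratio was -0.22 for Id targets, -0.20 for Smads, -0.04 for ligands, -0.01 for receptors and 0.13 for antagonists and binding proteins. These are descriptions of 4 to 16 genes each, set beside the median of all loci and not tested.

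**Figure D1:**
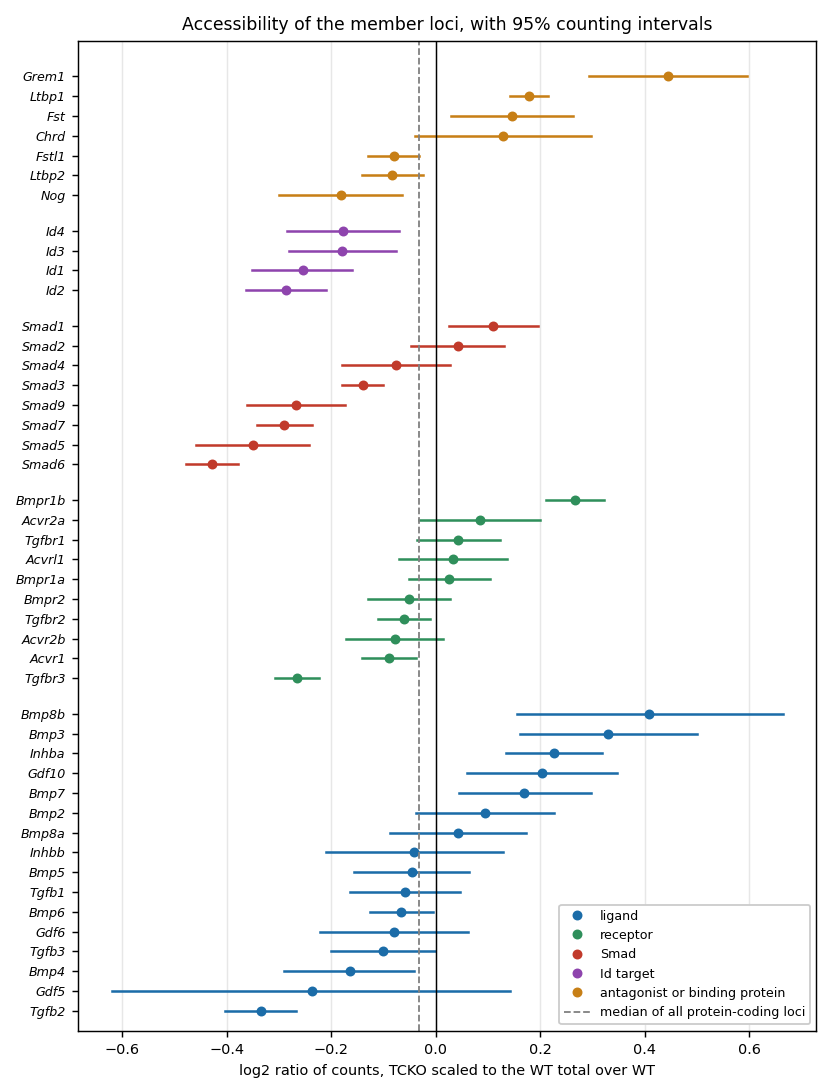
Log2 ratio of TCKO counts, scaled to the WT total, over WT counts (x axis) for each of the 45 member loci (y axis), grouped by role, with bars for the 95% counting interval and a dashed line at the median of all protein-coding loci. The 4 Id targets and 6 of the 8 Smads lie to the left of 0, from -0.43 at Smad6, whereas Grem1 lies farthest to the right at 0.44.

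Of the 8 Smad loci, 5 had an interval below 0 and 1 above it, and both inhibitory Smads were among the lowest. *Smad6*, which blocks BMP receptor signaling and is itself induced by it, held 10225 counts in WT and 4619 in TCKO over 22 regions, a log2 ratio of -0.43 (-0.48 to -0.38). Only 3.25% of all protein-coding loci had as low a ratio. *Smad7*, which inhibits TGF-beta and BMP receptors alike, held 8743 and 4350 counts over 10 regions, with a ratio of -0.29 (-0.34 to -0.24). Of the BMP-activated Smads, 2 had an interval below 0 and 1 above it. *Smad5* held 2125 counts in WT and 1014 in TCKO (-0.35, -0.46 to -0.24) and *Smad9* 2711 and 1370 (-0.27, -0.36 to -0.17), whereas *Smad1* held 2782 and 1826 (0.11, 0.03 to 0.20). The interval of *Smad1* held 0 with TMM, another scaling of the 2 columns (0.03), and within 2 kb of the gene start (-0.01). Within *Smad5*, the region over the gene start had 827 and 510 counts (0.02, -0.14 to 0.18) and the next one, near a second transcript start, 823 and 290 (-0.79, -0.98 to -0.60), so that the lower total came from beyond the first start. The TGF-beta-activated *Smad3* held 14759 and 8148 counts over 28 regions (-0.14, -0.18 to -0.10), and *Smad2* 2599 and 1627 (0.04, -0.05 to 0.13). The shared partner *Smad4* had 2037 and 1175 counts and an interval that held 0 (-0.08, -0.18 to 0.03). At the 5 loci with an interval below 0, the peak caller's fold enrichment over local background was compared at the main promoter region. From WT to TCKO it rose at *Smad7* (4.17 to 4.78), *Smad3* (6.44 to 7.31) and *Smad5* (6.01 to 6.82). It fell at *Smad6* (4.95 to 4.18) and *Smad9* (5.88 to 4.24). For *Smad5* the main promoter region was the one over the gene start, whose count ratio was 0.02, and not the next one at -0.79.

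The Id targets, whose proteins hold basic helix-loop-helix factors away from DNA, were lower in TCKO at 4 of 4 loci, all with intervals below 0. *Id2* held 4083 counts in WT and 2035 in TCKO (-0.29, -0.36 to -0.21), and *Id1* held 2602 and 1326 (-0.26, -0.35 to -0.16). *Id3* followed with 2209 and 1187 counts (-0.18, -0.28 to -0.08) and *Id4* with 1990 and 1070 (-0.18, -0.29 to -0.07), so the 4 loci lay within a narrow band whose intervals overlapped. Most of the regions shared this direction: 9 of the 10 Id regions had a ratio below 0, the exception being a small intronic region of *Id4* with 77 counts in WT and 66 in TCKO (0.49). At *Id1* the region over the start held 1531 and 785 counts (-0.25, -0.37 to -0.12), and the upstream region, whose central bases with GGCGCC are printed above, held 1071 and 541 (-0.27, -0.42 to -0.12). GGCGCC stood in the 300-base window of 16.7% of the 6 Id promoter regions, against 19.4% of all promoters, and in 4 of the 4 Id regions outside promoters, against 2.08% of all regions outside promoters. These 4 regions had medians of 24 CG dinucleotides and 66.3% GC per window, against 3 and 47.0% for all regions outside promoters. The sets thus differed in base composition, and no test was made. The Id regions were among the strongest of the pathway, and the ratio of a region moved with its count across the table. When a smooth trend of ratio on count (loess) was subtracted, *Id1* and *Id2* remained below 0 at -0.14 and -0.16, whereas the intervals of *Id3* (-0.05) and *Id4* (-0.11) held 0. The fold enrichment that the peak caller reported over local background went the other way at several of these regions, from 3.53 in WT to 4.41 in TCKO at the *Id1* start, from 3.22 to 3.93 at the *Id3* start, and from 3.71 to 4.81 upstream of *Id2*. At the region with most counts, fold enrichment fell slightly for *Id2* (4.57 to 4.45) and *Id4* (9.49 to 9.37). Over the 7 Id regions with a summit in both genotypes the median log2 ratio of fold enrichment was 0.19, against -0.19 over all such regions. For Id promoters alone it was -0.02, against -0.17 for all promoters.

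**Figure D2:**
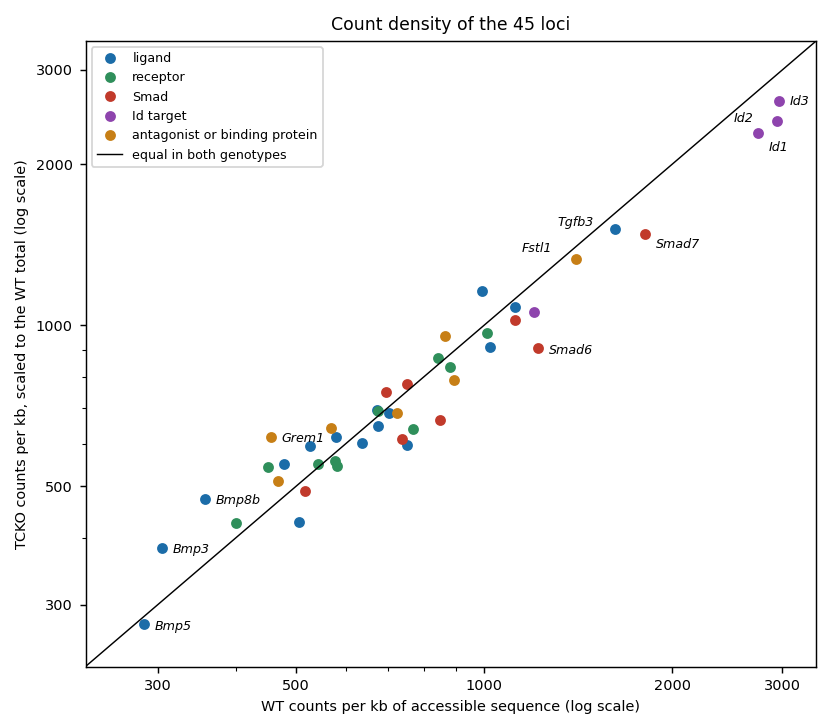
WT counts per kb of accessible sequence (x axis) against TCKO counts per kb scaled to the WT total (y axis), both on log scales, for the 45 loci, with a line where both are equal. Id3, Id2 and Id1 stand at the upper right with 2960, 2940 and 2740 WT counts per kb, below the line, and Bmp5 at the lower left with 285.

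Per kb of accessible sequence, 3 of the 4 Id loci were the most accessible of the pathway in WT cells. *Id3* held 2960 WT counts per kb, *Id2* 2940 and *Id1* 2740, followed by *Smad7* with 1810, *Tgfb3* with 1620, *Fstl1* with 1400, *Smad6* with 1220 and the remaining Id locus, *Id4*, with 1200. At the other end stood *Bmp5* with 285, *Bmp3* with 305 and *Bmp8b* with 357. With scaled TCKO counts, *Id3* (2620 per kb), *Id2* (2410) and *Id1* (2290) were again the most accessible, and *Tgfb3* (1510) lay slightly above *Smad7* (1480). *Smad6* had 1220 counts per kb in WT and 905 in TCKO, whereas *Inhba* had 991 and 1160.

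Among the 16 ligands, 4 had an interval below 0 and 5 above it, with a median of -0.10 over the 3 TGF-beta ligands and 0.04 over the 11 BMP and GDF ligands. *Tgfb2*, 1 of the 3 TGF-beta isoforms, held 5264 counts in WT and 2538 in TCKO over 17 regions (-0.34, -0.40 to -0.27). *Tgfb3* held 2221 and 1259 counts (-0.10, -0.20 to -0.002), 2 of its 4 regions also lying in another gene, and *Tgfb1* 1965 and 1147 (-0.06, -0.16 to 0.05). For *Tgfb3* the ratio was 0.01 after the loess correction. Of the BMPs that act as bone inducers, *Bmp4* held 1466 and 795 counts (-0.17, -0.29 to -0.04), *Bmp6* 5959 and 3463 (-0.07, -0.13 to -0.01) and *Bmp7* 1241 and 849 (0.17, 0.04 to 0.30). The interval held 0 for *Bmp4* after the loess correction (-0.09, -0.22 to 0.03), and for *Bmp7* with TMM, where the ratio was 0.09. *Bmp2* had 1161 counts in WT and 754 in TCKO, with an interval that held 0 (0.09, -0.04 to 0.23). Within it, the region at the start had 726 and 417 counts (-0.08, -0.26 to 0.09), and the region over a coding exon 130 and 136 (0.78, 0.44 to 1.13).

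*Bmp3*, a BMP that opposes osteogenic BMPs, held 642 counts in WT and 491 in TCKO (0.33, 0.16 to 0.50). *Gdf10*, which is closely related to it, held 944 and 661 (0.20, 0.06 to 0.35). At *Gdf10* the start had 515 and 298 counts (-0.07, -0.28 to 0.13) and the remaining regions 429 and 363 (0.48, 0.28 to 0.68), so the higher total came from within the gene. With 25 kb on either side included, the ratio of *Gdf10* was -0.002, and with TMM its interval held 0 (0.13). *Inhba*, which encodes a subunit of activin, held 2300 and 1637 counts (0.23, 0.14 to 0.32), and *Inhbb*, which encodes another, 748 and 442 (-0.04, -0.21 to 0.13). The highest ratio of a ligand was that of *Bmp8b*, with only 276 counts in WT and 223 in TCKO over 3 regions (0.41, 0.16 to 0.66). *Bmp8b* and its neighbour *Bmp8a* (1231 and 771 counts, 0.04) are closely related genes. Only uniquely mapped reads were kept, so reads from any stretch the genes share would be missing. How far this lowered either count was not tested, and the level of each is uncertain. The intervals of *Bmp5* (1779 and 1048 counts, -0.05), *Gdf6* (1088 and 626, -0.08) and *Gdf5* (161 and 83, -0.24) held 0, the last being the locus with the fewest counts of all.

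Of the 10 receptor loci, 6 had an interval that held 0. *Tgfbr3* had the lowest ratio of the 10. It encodes betaglycan, a co-receptor that presents TGF-beta2, and held 13379 counts in WT and 6773 in TCKO over 42 regions (-0.26, -0.31 to -0.22). *Bmpr1b*, a type I BMP receptor of cartilage and bone, was the highest with 6270 and 4587 counts over 45 regions (0.27, 0.21 to 0.32). The other intervals apart from 0 were those of *Acvr1* (8184 and 4677 counts, -0.09, -0.14 to -0.04), a type I receptor for BMPs, and *Tgfbr2* (8923 and 5205, -0.06, -0.11 to -0.01), the type II receptor of TGF-beta. The loess correction moved *Tgfbr2* to 0.01. *Bmpr1a* (3538 and 2191 counts, 0.03), the other main type I BMP receptor, and *Bmpr2* (3549 and 2084, -0.05), its type II partner, had intervals that held 0. The same was so for *Tgfbr1* (3209 and 2011, 0.04), the type I receptor of TGF-beta, for *Acvrl1* (1960 and 1220, 0.03), a type I receptor of endothelium, and for the activin receptors *Acvr2a* (1512 and 975, 0.08) and *Acvr2b* (2561 and 1475, -0.08). For *Tgfbr1* the loess-corrected ratio was 0.13, with an interval above 0 (0.05 to 0.21).

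The secreted antagonists divided. *Grem1*, which encodes the BMP antagonist gremlin, held 773 counts in WT and 640 in TCKO (0.44, 0.29 to 0.60), the highest ratio of any member, above that of 92.4% of all protein-coding loci. Its larger region held 641 and 486 counts (0.32, 0.15 to 0.49) and the one over its start 103 and 135 (1.10, 0.74 to 1.48), both higher in TCKO. *Nog*, which encodes the BMP antagonist noggin, held 1627 and 872 counts (-0.18, -0.30 to -0.06), so that its interval lay apart from that of *Grem1*. *Fst*, which encodes the activin antagonist follistatin, held 1473 and 991 (0.15, 0.03 to 0.26), and *Chrd*, which encodes the BMP antagonist chordin, 708 and 471 (0.13, -0.04 to 0.30). With TMM the interval of *Fst* held 0 (0.07). With 25 kb on either side, *Fst* and *Chrd* had ratios of -0.09 and -0.03, *Grem1* had 0.73, and the median of the 7 loci was -0.04. Of the latent TGF-beta binding proteins, *Ltbp1* held 14795 and 10184 counts over 74 regions (0.18, 0.14 to 0.22), whereas *Ltbp2* held 6403 and 3676 over 29 (-0.08, -0.14 to -0.03). *Fstl1*, which encodes a follistatin-like glycoprotein, held 9436 and 5426 counts (-0.08, -0.13 to -0.03), and 0.03 after the loess correction.

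Gene starts and the rest of the locus were then summed separately. Regions with a midpoint within 1 kb of a transcript start of the gene were taken as promoters, and 42 loci had both promoter and other regions. *Bmp4* and *Bmp8b* held no promoter region, and *Gdf5* held no other kind. By its interval, the promoter sum was below 0 at 19 of these (38.1% of the 12406 protein-coding loci with both kinds) and above 0 at 4 (11.6%). The sum of the other regions was below 0 at 17 (21.8%) and above 0 at 13 (36.9%). These shares, too, depend on the counts per locus. Both sums were below 0 at 9 loci (9.44% of all such loci), namely *Smad3*, *Smad5*, *Smad6*, *Smad7*, *Smad9*, *Id1*, *Id2*, *Tgfbr3* and *Nog*, and both above 0 at 1, *Ltbp1* (5.28%). *Id3* was a borderline case, with promoters at -0.16 (-0.27 to -0.06) and other regions at -0.30 (260 and 128 counts). The upper bound of its other regions rounded to 0, so it is in neither the 17 nor the 9. At 6 loci the promoters were lower in TCKO and the other regions higher, an arrangement held by 13.2% of all such loci, so that its share among the members was near the background. Over all regions the median ratio was likewise lower in promoters (-0.07) than outside them (0.09). *Tgfbr1* had 2184 promoter counts in WT and 1198 in TCKO (-0.15, -0.25 to -0.05) against 1025 and 813 elsewhere (0.38, 0.25 to 0.52). *Acvr2a* had 918 and 465 (-0.26, -0.42 to -0.10) against 594 and 510 (0.50, 0.33 to 0.67), and *Bmpr1a* 935 and 479 (-0.25, -0.41 to -0.09) against 2603 and 1712 (0.11, 0.03 to 0.20). The near-zero totals of these receptors combined lower starts with higher regions inside the genes. *Smad1* (-0.14 at the promoter and 0.28 elsewhere), *Smad2* (-0.12 and 0.55) and *Id4* (-0.21 and 0.49) showed the same arrangement. The opposite arrangement was seen at 1 locus (1.85% of all such loci), *Acvrl1*, with promoter regions at 0.36 (0.20 to 0.53) and other regions at -0.16 (-0.29 to -0.03). This promoter sum took in alternative starts inside the gene. Within 2 kb of the gene start itself, *Acvrl1* had 366 and 184 counts and was lower in TCKO (-0.27, -0.53 to -0.02). When only regions within 2 kb of the gene start were summed, the median receptor ratio was -0.16, against -0.08 over all protein-coding loci by the same rule. The median of the 45 member loci was then -0.09. An interval above 0 was kept by 2 of the 45 loci, and no share over all loci is given for this rule.

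**Figure D3:**
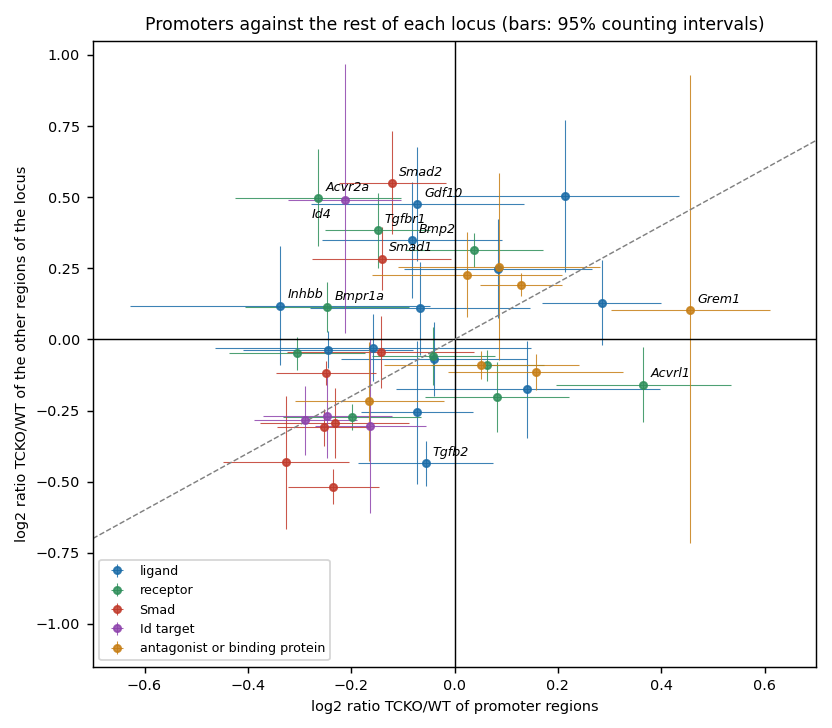
Log2 ratio of TCKO over WT for the summed promoter regions (x axis) against that for the other regions of the same locus (y axis) at 42 loci, colored by role, with bars for 95% counting intervals and a dashed line of equality. Smad2, Acvr2a and Tgfbr1 lie in the upper left, with promoters at -0.12, -0.26 and -0.15 and other regions at 0.55, 0.50 and 0.38.

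At the largest loci the ratios of single regions were also set out. Over all regions, 4.51% were at least 2-fold lower, 12.3% were at least 2-fold higher, and the median ratio was 0.06. In *Smad6*, 18 of 22 regions had a ratio below 0 and 5 were at least 2-fold lower, with no region at least 2-fold higher. The promoter had 3007 counts in WT and 1554 in TCKO (-0.24, -0.32 to -0.15), and the rest of the locus 7218 and 3065 (-0.52, -0.58 to -0.46), so that the introns were lower than the start. *Tgfb2* had its start at 1265 and 740 counts (-0.06, -0.19 to 0.08), whereas its remaining regions had 3999 and 1798 (-0.44, -0.52 to -0.36), with 13 of all 17 below 0. An intronic region of *Tgfb2* 10.3 kb from the start contributed most, with 1041 and 349 counts (-0.86, -1.03 to -0.69). In *Bmpr1b*, the region at the gene start had 967 and 551 counts (-0.09, -0.25 to 0.06) and all non-promoter regions 5098 and 3855 (0.31, 0.25 to 0.37), and 8 regions were at least 2-fold higher against 2 lower. *Ltbp1* was mixed: 15 of its regions were at least 2-fold higher and 8 at least 2-fold lower, with 44 of 74 above 0. In *Tgfbr3*, 34 of 42 regions were below 0, 4 of them at least 2-fold, while 2 were at least 2-fold higher. *Acvr1*, whose total was close to 0, had 4 regions at least 2-fold lower and 7 at least 2-fold higher.

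**Figure D4:**
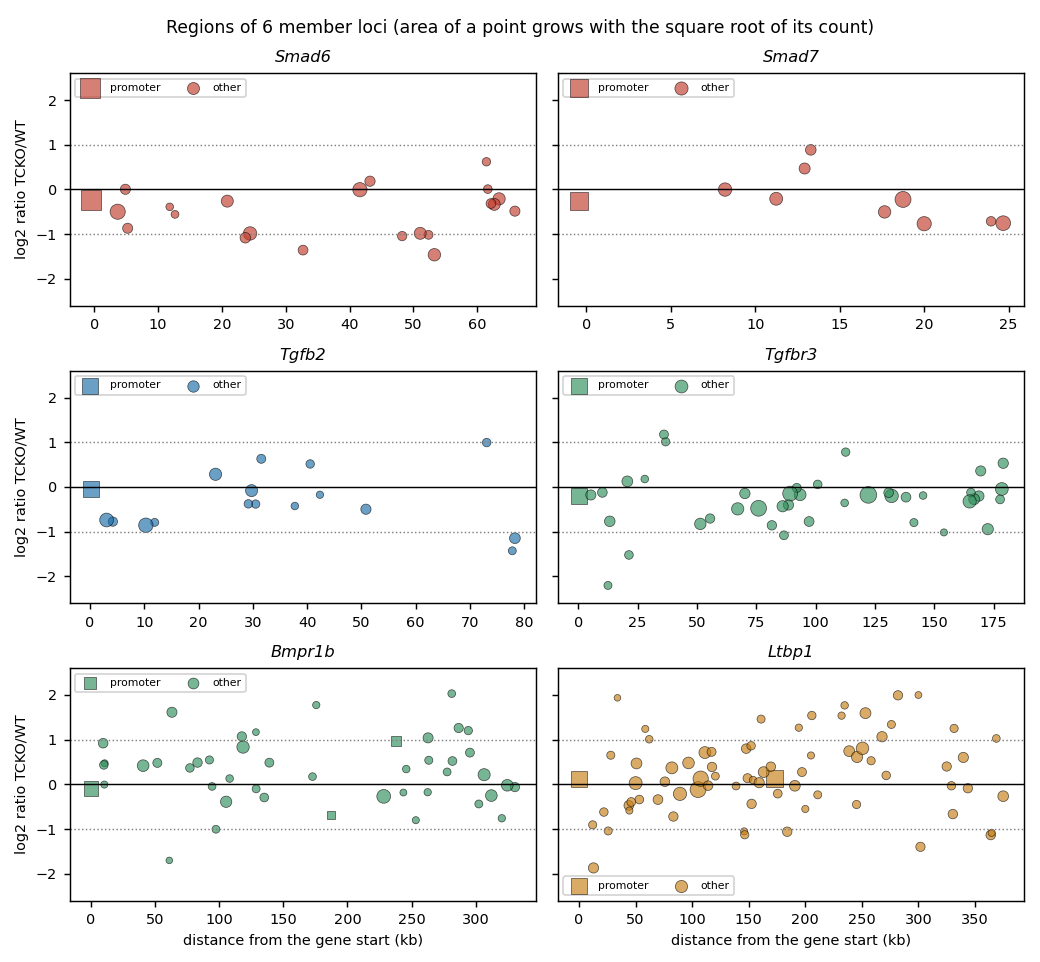
Log2 ratio of TCKO over WT (y axis) of each region against its distance from the gene start in kb (x axis) in 6 loci, with squares for promoter regions, circles for others, dotted lines at 2-fold and larger points for larger counts. In Smad6, 5 intronic regions lie at or below the lower dotted line, and in Bmpr1b and Ltbp1, 8 and 15 regions lie at or above the upper one.

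Over all member regions, 51 (8.32%) were at least 2-fold lower and 55 (8.97%) at least 2-fold higher, where 4.51% and 12.3% of all regions were. When the whole counting interval had to pass 2-fold, 6 remained lower and 15 higher. No share over all regions is given for this stricter rule, so these counts have no background beside them. The lowest ratio among the well covered regions was that of the printed *Ltbp1* intron 12.8 kb from the gene start, with 267 counts in WT and 44 in TCKO (-1.87, -2.34 to -1.43). The printed *Tgfbr2* intron had 125 and 23 counts (-1.70, -2.36 to -1.09) and that of *Tgfbr3* 120 and 25 (-1.52, -2.16 to -0.93), and in these 3 a summit was called in WT only. Next came an intron of *Smad3* with 263 and 57 counts (-1.48), an intron of *Smad6* 53.3 kb from the start with 613 and 135 (-1.46, -1.73 to -1.20) and an intron of *Acvr1* with 153 and 34 (-1.44). The highest was the printed *Ltbp2* intron, with 53 counts in WT and 139 in TCKO (2.09, 1.65 to 2.56) and a fold enrichment of 3.7 in WT and 7.99 in TCKO. The printed *Ltbp1* intron had 60 and 147 counts (1.99, 1.58 to 2.44) and that of *Bmpr1b* 102 and 191 (1.61, 1.28 to 1.97). In *Ltbp1* the lowest and the highest region lay 12.8 kb and 282 kb from the start of the same gene. Also among the highest were another *Ltbp1* intron (147 and 271, 1.59), another *Bmpr1b* intron (79 and 116, 1.26) and an inner start of *Inhba* (189 and 264, 1.20).

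Regions with TGANTCA, the letters read by bZIP factors such as AP-1, had higher ratios than regions without them. Outside promoters, the 144 member regions with these letters in their 300-base window had a median log2 ratio of 0.24, and the 392 without them -0.12. Over all regions outside promoters the medians were 0.40 with the letters (70286 regions) and -0.02 without (162749), in the same direction. With the narrower AP-1 core TGACTCA, an alternative chosen after the data were seen, the member medians were 0.33 with (112 regions) and -0.10 without (424). The letters stood in 5.88% of the member regions at least 2-fold lower and in 29.1% of those at least 2-fold higher, against 10.7% and 48.2% over all regions, and in 28.3% of all windows. The match in the printed *Ltbp2* intron was to TGAATCA, which is not the AP-1 core. Runt letters, read by RUNX2 among others, gave medians of 0.00 in the 159 member regions with them outside promoters and -0.03 in the 377 without, and they stood in 29.2% of all windows. For the TEAD letters the medians were -0.01 (121 regions) and -0.03 (415), with 22.1% of all windows holding them. The Smad palindrome GTCTAGAC was found in 4 member windows (0.653%, and 0.371% of all windows), and GGCGCC in 41. GGCGCC was more frequent in member promoters (27.3%) than in all promoters (19.4%), with no test made. The median window of the 2-fold lower member regions held 5 CG dinucleotides and that of the 2-fold higher ones 2, where over all regions these medians were 4 and 2.

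**Figure D5:**
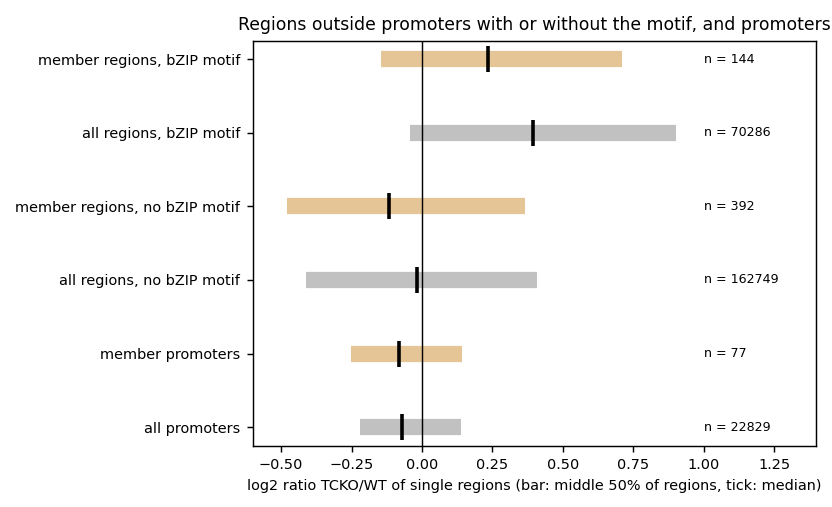
Quartile range of the log2 ratios of TCKO over WT (bars, x axis) and their median (ticks) for member regions and all regions, outside promoters with or without the bZIP motif, and in promoters. The median of member regions with the motif is 0.24 and without it -0.12, and the member promoters lie at -0.08 beside -0.07 for all promoters.

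Promoters of the pathway as a whole were near those of other genes. The 77 member promoter regions had a median ratio of -0.08, against -0.07 for all 22829 promoter regions, and the 536 member regions outside promoters had -0.02, against 0.09 for all such regions. Promoter medians were -0.25 for Id targets (6 regions), -0.20 for Smads (13), -0.10 for receptors (22), -0.06 for ligands (22) and 0.13 for antagonists and binding proteins (14). After the loess correction they were -0.124 for Id targets, -0.058 for Smads, -0.045 for receptors, -0.01 for ligands and 0.184 for antagonists and binding proteins. All promoters then had a median of -0.015, so that the Smad promoters lay close to those of the receptors. A summit was called in both genotypes in 345 member regions, in WT only in 219 (35.7%, and 33.0% of all regions) and in TCKO only in 49 (7.99%, and 10.2%). The TCKO column was the shallower of the 2, and the part of depth in this difference was not tested. Over the regions with a summit in both, the median log2 ratio of fold enrichment was -0.12 for members and -0.19 for all regions.

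A wider list of 56 further genes of the pathway gave a median ratio of -0.06, against -0.03 over all protein-coding loci. Of its intervals, 20 lay below 0, 11 above, and 25 held 0. Over all protein-coding loci 32.8% lay below 0 and 23.6% above, so that the list as a whole was near the background. Among the nuclear repressors of Smads, *Ski* held 13799 counts in WT and 6281 in TCKO (-0.42, -0.46 to -0.38), *Skil* 3786 and 2152 (-0.10, -0.17 to -0.02) and *Tgif1* 4030 and 2018 (-0.28, -0.36 to -0.20), whereas *Tgif2* held 1459 and 991 (0.16, 0.04 to 0.28). *Ski* thus lay as low as *Smad6*, the lowest of the 45. Among the secreted modulators, *Fstl3* held 1878 and 909 counts (-0.33, -0.44 to -0.21) and *Bmper* 10444 and 7252 (0.19, 0.15 to 0.23). *Sost*, which encodes the osteocyte product sclerostin, held 516 and 459 counts (0.55, 0.37 to 0.73), above *Grem1*. The pseudoreceptor *Bambi* (2402 and 1489, 0.03) and the ubiquitin ligase *Smurf1* (8106 and 5039, 0.03) had intervals that held 0.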

How the data were processed

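ATAC-seq was made from primary osteoblasts of 4 labelled samples, 2 WT and 2 TCKO. The protocol text in the labels speaks of 3 repeats per group and names an RNA library kit, whereas the methods of the study name a Tn5 kit, so the number of libraries merged is uncertain. The authors aligned reads to GRCm38 with STAR 2.7.0e, kept unique alignments, merged the replicates and deposited raw read counts per region in 1 column per genotype. Fold enrichment of each summit over local background, as a ratio, and its −log10 p-value are as the authors deposited them from MACS2, in 1 peak list per genotype. Whether reads were shifted for the Tn5 offset is not given in the sources used here, and 0 columns of values were set aside.

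Region counts were summed per locus from GENCODE M21, all 45 genes being matched by name. TCKO counts were scaled to the WT total, 1 count was added, and the 95% Wilson interval of the TCKO share was carried to the log2 ratio. With 1 column per genotype no count model could be fitted, and no p-value is given. The caller's fold and −log10 p-value gave the background level behind 1 alternative scaling. Other alternatives were edgeR 4.0.16 TMM and DESeq2 1.42.0 size factors, no scaling, a loess correction (span 0.3, statsmodels 0.14.6), regions within 2 kb of a start, 25 kb on either side, regions of no other gene, 10 counts added, a minimum of 50 counts and an interval wholly past 2-fold. Sequence was read from the GRCm38 assembly, after the highest coordinate on each of 21 chromosomes was checked against its length, in 300-base windows around region midpoints. Named regions were the 6 lowest and 6 highest ratios past 2-fold with at least 100 counts in 1 genotype, and per locus the promoter and the region with most counts. Member genes, roles and marker lists were chosen with earlier results of these data known. The summing and interval steps were tested on simulated data.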

Additional observations from a re-analysis of the deposited data

How the results depend on the processing

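No paired analysis was possible because the counts were deposited as a single merged column per genotype. Fits that leave out a replicate, or that block on its number, were therefore not run, and the differences carry no replicate error. The scaling moved the ratios most. The median of the 45 loci was -0.136 with the TMM factor (a shift of -0.076 in log2), -0.126 with median-of-ratios, -0.778 without scaling and -0.669 with the peak caller background. Without scaling the role medians were -0.76 (ligands), -0.729 (receptors), -0.921 (Smads), -0.934 (Id targets) and -0.587 (antagonists and binding proteins), and with the caller background -0.652, -0.621, -0.812, -0.826 and -0.479, while that of the Smads was -0.279 with TMM. These 2 settings put 45 and 44 loci below 0 and 0 above, 182 and 142 regions at least 2-fold lower and 14 and 15 higher, so that any locus described as higher in TCKO is higher only relative to the total. With TMM and with median-of-ratios 6 loci lay above 0 (*Bmp3*, *Bmp8b*, *Inhba*, *Bmpr1b*, *Grem1* and *Ltbp1*). Relative to the median of all loci, which a constant factor leaves almost as it is, the Smads stood at -0.17 and the Id targets at -0.18. The loess correction gave -0.17 and -0.13. It left 13 of the 19 lower loci below 0 and 10 of 10 higher loci above, the others being *Bmp4*, *Tgfb3*, *Tgfbr2*, *Id3*, *Id4* and *Fstl1*. Near the start the receptor median was -0.162, against -0.083 over all loci, and 2 member loci lay above 0. With 25 kb on either side the antagonist median was -0.043, against -0.02 over all loci. Adding 10 counts left 28 regions at least 2-fold lower, and an interval wholly past 2-fold left 6 lower and 15 higher. For the counts of regions and of loci in these settings, no share over all regions or all protein-coding loci is given. The median of all protein-coding loci moved with the scaling as that of the members did. It was -0.109 with TMM, -0.098 with median-of-ratios, -0.749 without scaling and -0.641 with the caller background. The direction of the Smad and Id medians was the same in the settings tried, all of which used the counts and not the fold enrichment of the summits. TMM, median-of-ratios, no scaling and the caller background lower every ratio, so a negative median could not turn positive under them. The sign could have changed with loess, near the start and with 25 kb on either side. There the Smad medians were -0.165, -0.2 and -0.155, and the Id medians -0.124, -0.222 and -0.183. Loci with few counts, such as *Gdf5* and *Bmp8b*, are limited by depth, and their intervals are the widest.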
